A study of Oryza sativa with 4 samples.

Results

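The subject is the cytokinin pathway of rice in the flag leaf collar of the lc1 mutant and the wild type. Its members are the probe sets whose single annotated gene carries a name of the LOG, LOGL, IPT, CKX, RR, ORR, HK, AHP or PHP series, and 32 genes with 37 probe sets met that rule, of 17905 genes with a probe set of their own. RNA was taken from a stretch of the lamina joint of the flag leaf, which per the labels is the collar, where the blade meets the sheath and bends away from the stem. Each genotype was hybridised to 2 Affymetrix Rice Genome arrays, 4 in all, called lc1 mutant 1 and 2 and wild type 1 and 2 here, and the series' design text calls the 2 hybridisations of each genotype biological replicates. The labels give no allele, cultivar, plant age or treatment for either genotype.

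Cytokinins are adenine-derived hormones that promote cell division, hold back leaf senescence and maintain shoot meristems. Isopentenyltransferases (IPT) make their nucleotide precursors, enzymes of the LOG family release the active free bases, and cytokinin oxidases (CKX) destroy the bases irreversibly. Membrane histidine kinases (HK) bind the hormone, phosphotransfer proteins (AHP) carry the signal to the nucleus, and type B response regulators activate transcription there. Among their targets are the type A response regulators, which respond quickly to cytokinin and damp the pathway, so that their transcripts are commonly read as a sign of cytokinin response.

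LOG-family genes numbered 8 with a probe set, cytokinin oxidases 5, receptors 3 and phosphotransfer proteins 3. The response regulators numbered 6 of type A (numbers up to 20), 5 of type B (numbers 21 to 40) and 2 with higher numbers. This split goes by number only: the gene table also calls RR33, counted here with type B, OsRRA19, and RR41 OsRRA14, and neither was tested. No gene of the gene table carried an IPT name, so that the first step of synthesis was not analysed here, and the other 13 genes of the 45 with a matching name, CKX2 (Gn1a, known for its effect on grain number), LOGL4, LOGL8 and HK1 among them, were not analysed here either. In all, 28 genes and 32 probe sets passed the filter on low signals and were tested. CKX1, RR33 and RR41 lay under the floor set by control probe sets without a rice target on all 4 arrays, and RR5 was above it only on lc1 mutant 1, with a signal of 11.8 against a floor of 11.6.

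Signals are given after each array was brought to the same median over the 34355 tested probe sets, in arbitrary units, and a difference is the mean log2 signal in lc1 minus that in the wild type with its standard error (SE) from limma. On this scale the median tested probe set lay at 0.07, and 56.6% of tested probe sets lay higher in lc1. GH3.1, which is known from the literature as LC1 and codes for an enzyme that conjugates auxin to amino acids, had signals of 464 and 449 in lc1, against 1.09 and 9.11 in the wild type. Both wild-type values were under the floor, so that GH3.1 was at least 41.9-fold higher in lc1 (limma adjusted p = 0.0336). For the Gapdh control transcript of rice, 5' over 3' signal, a measure of RNA integrity, came to 0.246 for lc1 mutant 1, 0.138 for lc1 mutant 2, 0.164 for wild type 1 and 0.236 for wild type 2. Among marker lists, LG1 and BU1 of the collar were above the floor on all 4 arrays, as were RBCS and CAB2R of green blade, while the meristem marker OSH1 was under it on all 4. A probe set was found for 2 of 3 collar, 2 of 5 green blade, 1 of 2 meristem and 0 of 2 root names. Of the anther and pollen genes, C6 was above the floor on both lc1 arrays and on wild type 1. TDR was above it only on lc1 mutant 2 and CYP703A3 only on wild type 1. The panicle-associated MADS14, MADS15, MADS18 and MADS34 were above it on all 4 arrays, with a summed signal of 2558 and 4670 in lc1, against 5776 and 5424 in the wild type. In RNA of a whole tissue, fewer cells of a type and less RNA per cell cannot be told apart.

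The comparison asks at which step of the cytokinin pathway transcripts differ between lc1 and the wild type. LOGL3, of the enzymes that release active cytokinin, had the widest difference of the tested members, 3.19-fold lower in lc1, and its relatives went both ways. The type A response regulators lay lower in lc1 on average in 5 of 5 tested genes, by 1.12 to 1.65-fold, but only on lc1 mutant 1 did all of them lie below the wild type. Oxidases, receptors, phosphotransfer proteins and type B regulators differed by less than 1.5-fold between the genotypes on the brightest probe set of each gene.

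No cytokinin probe set passed limma at an adjusted p under 0.05 (0 of 32), where 20 of all 34355 tested probe sets did (0.0582%). At an unadjusted p under 0.05 there was 1 of 32, LOGL3, against 8.43% of all tested probe sets. A linear model without moderated variances gave 0 of 32 adjusted and 2 of 32 unadjusted, against 0 and 2137 of all 34355 tested probe sets. Both lc1 arrays lay above both wild-type arrays for 4 of the 32, against 25.1% of all tested probe sets, and below them for 6 of the 32, against 15.1%. With a difference of at least 1.5-fold and the brighter genotype above the floor asked for as well, 1 probe set was higher in lc1, of LOGL7, against 8.4% of all tested probe sets, and 2 were lower, of LOGL3 and CKX11, against 6.07%. The median SE of the member genes was 0.28 on the log2 scale, a factor of 1.21, so that differences of the size most members showed were not detectable with 2 arrays per genotype.

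**Figure D1:**
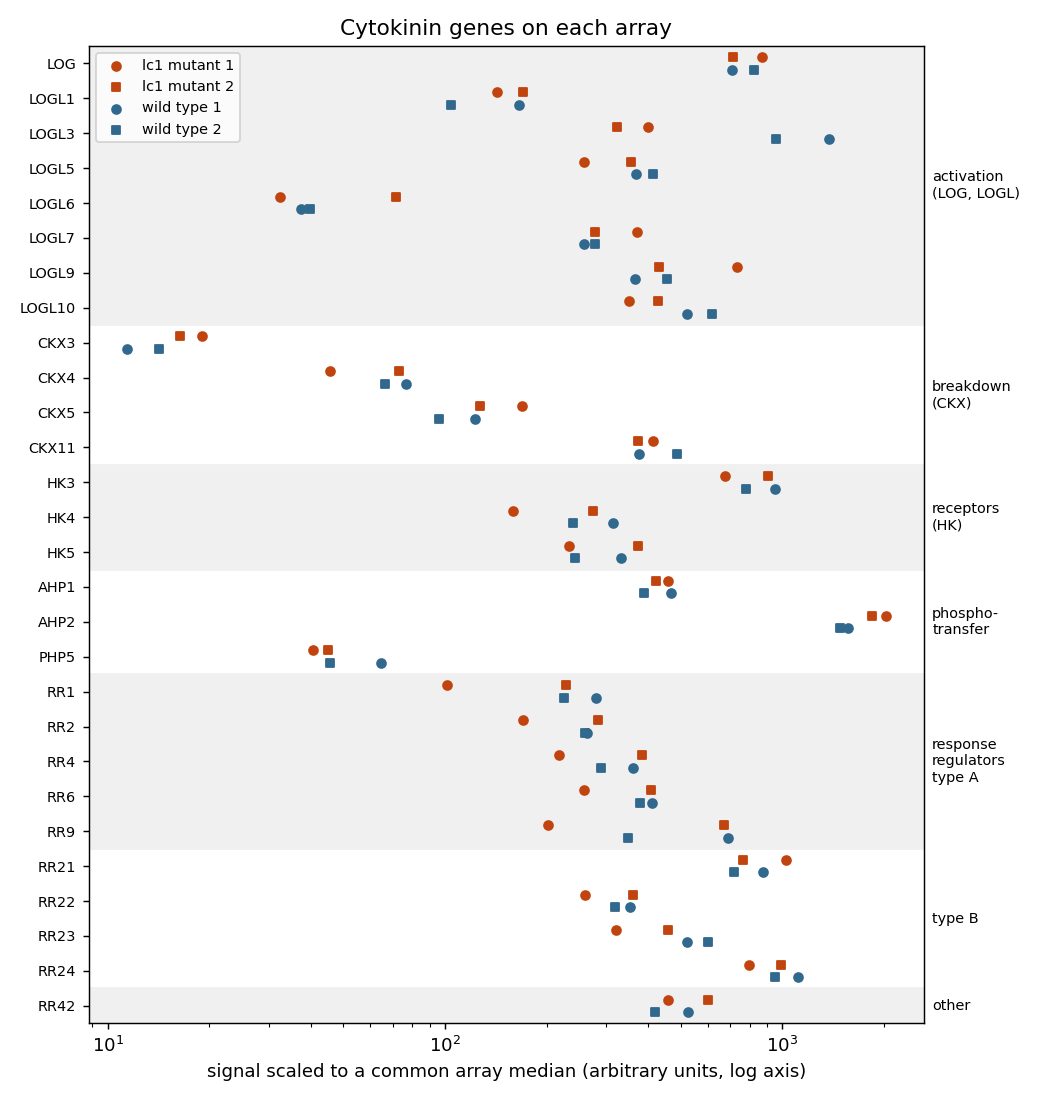
Signal of each of the 28 tested cytokinin genes (rows, grouped by step) on each array, scaled to a common array median in arbitrary units on a log axis, with lc1 arrays in red above and wild-type arrays in blue below. LOGL3 is the row in which the genotypes stand farthest apart, with 401 and 323 in lc1 and 1378 and 957 in the wild type.

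LOGL3 (LOC4331344) had signals of 401 and 323 on lc1 mutant 1 and 2, against 1378 and 957 on wild type 1 and 2. Both lc1 arrays lay far below both wild-type arrays, and the gap between the genotypes was wider than that between the arrays of either. The mean was 361.9 ± 55.0 in lc1 and 1167 ± 297.6 in the wild type (SD, n = 2 each), a log2 difference of -1.67 ± 0.26 with an unadjusted limma p of 0.000114 and an adjusted p of 0.0775, short of the threshold. Leaving out lc1 mutant 1 gave a limma adjusted p of 0.00465 and leaving out lc1 mutant 2 one of 0.00668, but leaving out wild type 1 gave 0.506 and leaving out wild type 2 gave 0.181, and in each of these fits the genotype left with 1 array is assumed to vary like the other. Over these and the other alternatives run, with the median tested probe set held at the same level, the difference stayed between -1.91 and -1.41 on the log2 scale.

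LOGL10 stood next among the LOG family, with 351 and 429 in lc1 against 523 and 619 in the wild type, a log2 difference of -0.55 ± 0.25. Its genotypes did not overlap, and its unadjusted limma p was just above 0.05 (adjusted p = 0.593). LOGL5 also had both lc1 arrays below both wild-type arrays, at 259 and 355 against 367 and 412, a difference of -0.36 ± 0.27 that is little wider than its error. LOGL3, LOGL5 and LOGL10 are thus the 3 LOG-family genes that lay lower in lc1.

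The other 5 LOG-family genes lay higher in lc1 by small amounts, and each overlapped between the genotypes on its brightest probe set. LOG itself, named for the meristem defect of the rice lonely guy mutant, read 870 and 714 in lc1 against 707 and 825 in the wild type, a log2 difference of 0.04 ± 0.22. Its other probe set was under the floor on all 4 arrays. LOGL9 read 732 and 429 in lc1 against 367 and 454 in the wild type (0.46 ± 0.30), so that lc1 mutant 1 alone stood above the wild type.

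LOGL7 read 371 and 278 in lc1 against 257 and 279 in the wild type on its brightest probe set, a difference of 0.26 ± 0.27. Its dimmer probe set gave 32.7 and 29.8 in lc1 against 21.1 and 19.0 in the wild type, a difference of 0.64 ± 0.39 (1.56-fold), without overlap. Both probe sets put LOGL7 higher in lc1, but neither by much more than its error, and the limma adjusted p were 0.812 and 0.681. LOGL1 (0.25 ± 0.32) and LOGL6 (0.32 ± 0.43) had errors larger than their differences. The median of the 8 genes was 0.15, beside 0.07 for all tested probe sets.

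The cytokinin oxidases were divided as well, with 2 of 4 tested genes higher in lc1 and 2 lower and a median of 0.16. CKX5 read 169 and 127 in lc1 against 122 and 95.7 in the wild type, a log2 difference of 0.44 ± 0.31. CKX3 read 19.0 and 16.4 in lc1 against 11.4 and 14.2 in the wild type, close to the floor on every array, with a difference of 0.48 ± 0.49. In both genes the lc1 arrays stood above the wild-type arrays, by a margin narrower than the spread within a genotype for CKX5 and near background for CKX3.

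CKX11, known in rice for its part in leaf senescence and grain number, was represented by probe sets that disagreed in size. The brighter gave 414 and 374 in lc1 against 376 and 488 in the wild type, a difference of -0.12 ± 0.25 with overlap. The dimmer gave 17.9 and 19.8 in lc1 against 27.2 and 37.1 in the wild type, a difference of -0.76 ± 0.41 (1.69-fold lower, adjusted p = 0.651) without overlap. CKX4, known for its effect on root growth in rice, read 45.5 and 73.3 in lc1 against 76.8 and 66.4 in the wild type (-0.31 ± 0.35).

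Among the receptors, HK3 read 677 and 907 in lc1 against 951 and 779 in the wild type, a log2 difference of -0.14 ± 0.24. HK4 read 159 and 275 in lc1 against 315 and 240 in the wild type, a difference of -0.39 ± 0.33. HK5 gave 0.06 ± 0.32 on its brighter probe set, of a type that can cross-hybridise (_s_at), and -0.42 ± 0.35 on the dimmer. Its sign was thus not settled. In all 3 receptor genes lc1 mutant 1 was the lowest of the 4 arrays, as in 16 of the 28 member genes and 29.6% of all tested probe sets. On the brightest probe sets lc1 mutant 2 lay within or above the range of the wild-type arrays.

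The phosphotransfer proteins included AHP2, which had the smallest error of the members. AHP2 read 2027 and 1841 in lc1 against 1568 and 1478 in the wild type, means of 1934 ± 131.2 and 1523 ± 63.4 (SD, n = 2 each). The genotypes did not overlap, and the log2 difference was 0.34 ± 0.17 (1.27-fold, limma adjusted p = 0.632). AHP1 read 458 and 423 in lc1 against 469 and 390 in the wild type, a difference of 0.04 ± 0.24, and its other probe set gave 0.09 ± 0.34. PHP5, a pseudo-phosphotransfer protein of the class that lacks the phosphorylated histidine, read 40.5 and 45.1 in lc1 against 64.8 and 45.7 in the wild type (-0.35 ± 0.35), where wild type 1 alone stood apart.

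**Figure D2:**
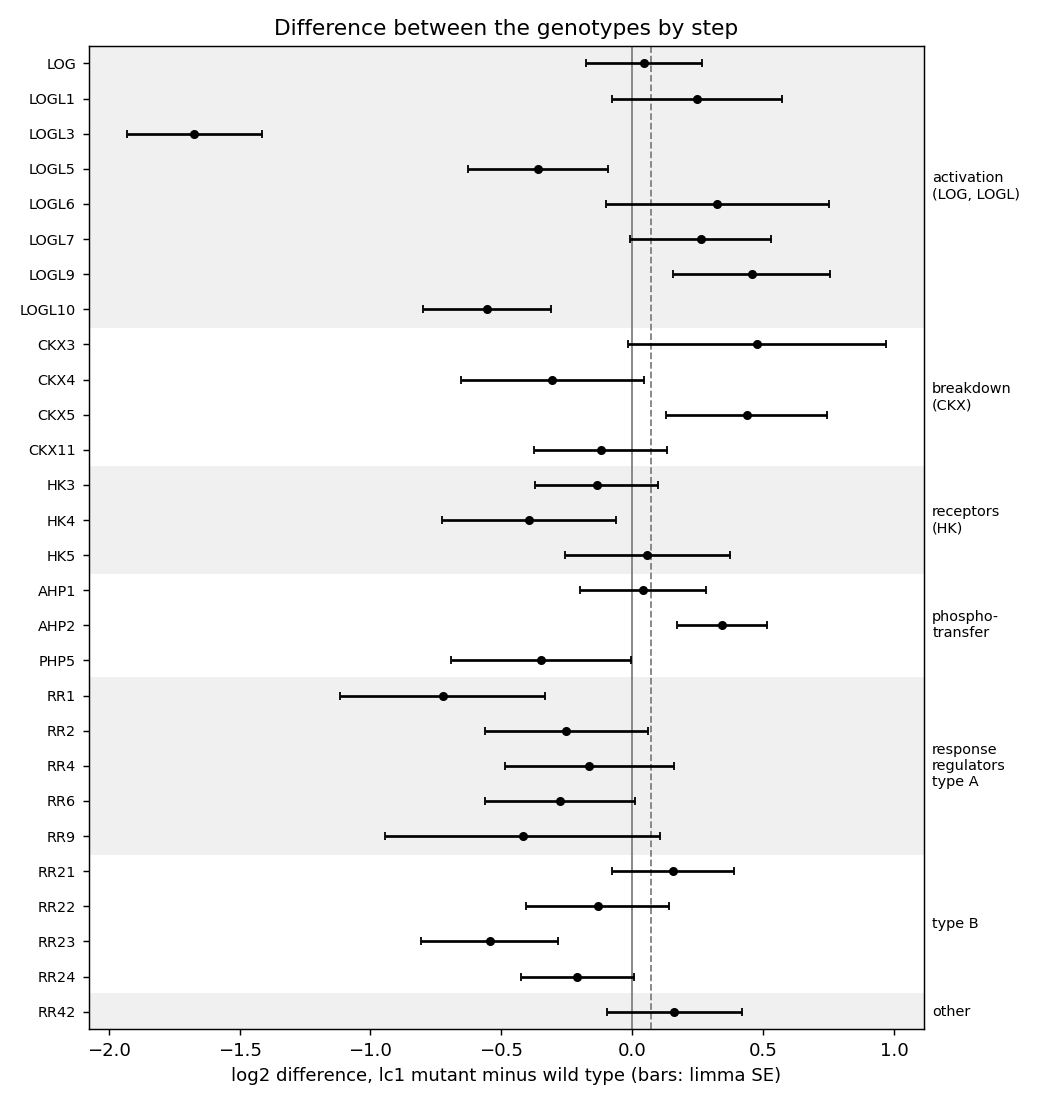
Log2 difference of each tested cytokinin gene, lc1 mutant minus wild type, on its brightest probe set, with bars for the limma SE. The solid line marks 0 and the dashed line the median of all tested probe sets (0.07). LOGL3 at -1.67 lies apart, and the 5 type A response regulators all lie left of 0, between -0.72 and -0.16.

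The type B response regulators, the transcription factors of the pathway, had a median of -0.17, with 3 of 4 tested genes lower in lc1. RR23 read 322 and 458 in lc1 against 522 and 601 in the wild type, a log2 difference of -0.54 ± 0.26 (limma adjusted p = 0.623), and was the 1 type B gene whose genotypes did not overlap. RR24, which is known to be needed for meiosis in rice, read 796 and 992 in lc1 against 1114 and 948 in the wild type (-0.21 ± 0.22). RR22, known for its effect on salt tolerance, read 259 and 362 in lc1 against 353 and 319 in the wild type (-0.13 ± 0.27). RR21 lay the other way, at 1023 and 764 in lc1 against 874 and 720 in the wild type (0.16 ± 0.23). RR42, numbered outside both types, read 458 and 601 in lc1 against 526 and 418 in the wild type (0.16 ± 0.26).

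The type A response regulators were alike in how their values fell over the arrays. RR1, known as a target of the crown root factor CRL5, read 101 and 229 in lc1 against 281 and 225 in the wild type, a log2 difference of -0.72 ± 0.39. RR9, known together with RR10 for an effect on salt tolerance, read 202 and 671 in lc1 against 691 and 349.6 in the wild type (-0.42 ± 0.53). In both genes lc1 mutant 1 was far below the other arrays, while lc1 mutant 2 lay within the range of the wild-type arrays. RR6 read 258 and 408 in lc1 against 410 and 377 in the wild type (-0.28 ± 0.29). RR2, which the root factor WOX11 is known to repress, read 170 and 284 in lc1 against 263 and 260 in the wild type (-0.25 ± 0.31). RR4 read 217 and 384 in lc1 against 361 and 290.4 in the wild type (-0.16 ± 0.32). For RR2 and RR4 lc1 mutant 2 was the highest of the 4 arrays and lc1 mutant 1 the lowest.

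The median of the 5 type A genes was -0.28, or -0.35 relative to the median tested probe set, and the genotypes overlapped in each of them. Relative to the median tested probe set it came to -0.67 when lc1 mutant 2 was left out and to -0.0086 when lc1 mutant 1 was, so that lc1 mutant 1 decides it. Without lc1 mutant 2, RR1 had a log2 difference of -1.29 in a fit of 1 lc1 array. In that fit the spread within a genotype comes from the wild-type arrays, with variances moderated over all tested probe sets. Over the other alternatives the limma adjusted p of RR1 lay at or above 0.596. In all 5 genes lc1 mutant 1 was the lowest of the 4 arrays, which held for 16 of the 28 member genes and for 29.6% of all tested probe sets. The log2 signal on lc1 mutant 1 minus that on lc1 mutant 2 lay between -1.73 and -0.66 in these 5 genes. A value of -0.66 or lower was found in 9 of the 28 member genes and in 15.5% of all tested probe sets. That cutoff was taken from these same 5 genes, so that their meeting it is no test. Wild type 1 stood above wild type 2 in 5 of the 5 as well, a count not taken over all tested probe sets. Relative to the mean of each gene over the 4 arrays, the 28 member genes had medians of 0.15 on wild type 1 and -0.07 on wild type 2. All tested probe sets had medians of -0.0039 and -0.038. The Gapdh ratio and the panicle-associated genes also parted the arrays of lc1. The ratio was 0.246 for lc1 mutant 1 and 0.138 for lc1 mutant 2, and it parted the wild-type arrays too, at 0.164 and 0.236. The 4 panicle-associated genes summed to 2558 and 4670 in lc1, against 5776 and 5424 in the wild type. Their mean log2 signal was lower in lc1 in 4 of 4, as in 14900 of all 34355 tested probe sets. MADS18 overlapped between the genotypes, at 950 and 1519 in lc1 against 1406 and 1258 in the wild type (-0.15 ± 0.24). The part of the ratio and of these genes in the values of the type A genes was not tested.

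**Figure D3:**
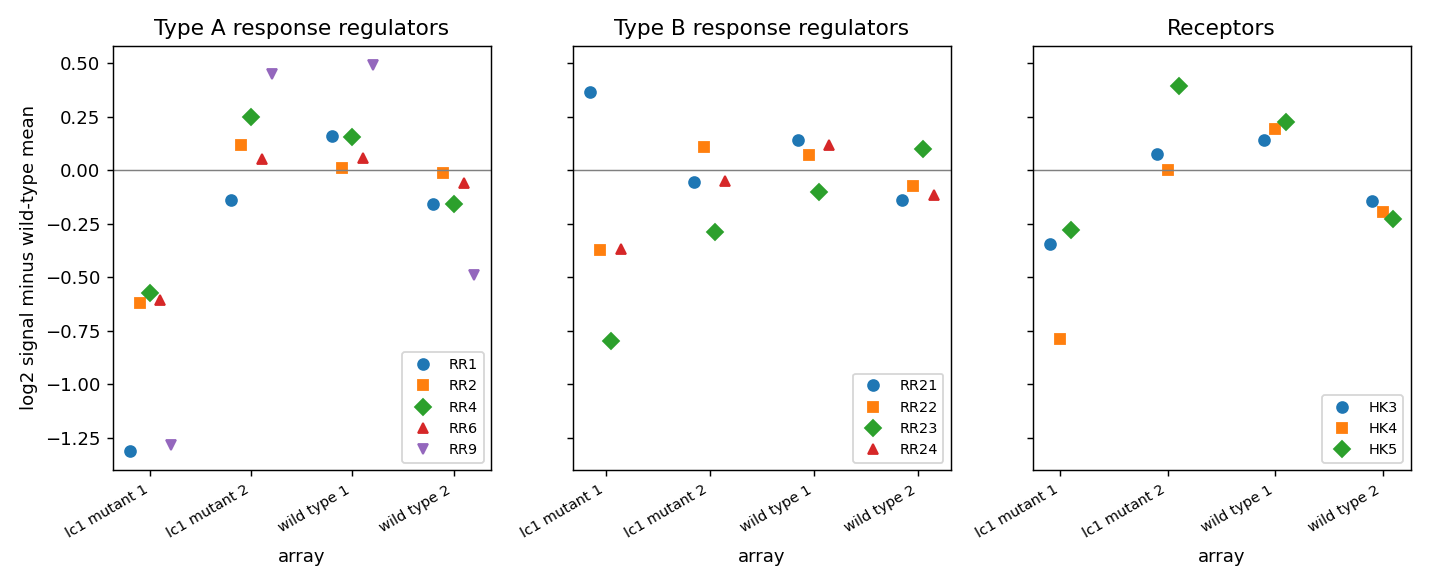
Log2 signal of each tested type A response regulator, type B response regulator and receptor gene on each array, relative to the mean of that gene on the wild-type arrays. On lc1 mutant 1 all 5 type A genes lie below the wild-type mean, between -1.31 and -0.57, whereas on lc1 mutant 2 they lie on both sides of it.

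Set side by side, the step medians were 0.15 for the LOG family, 0.16 for the oxidases, -0.14 for the receptors, 0.04 for the phosphotransfer proteins, -0.28 for the type A and -0.17 for the type B regulators. Over all 28 tested genes the median was -0.13, with 12 higher and 16 lower in lc1, beside 0.07 for all tested probe sets. On lc1 mutant 1 alone, against the wild-type mean, the median of the 28 was -0.36, and on lc1 mutant 2 alone it was 0.05, where all tested probe sets had medians of 0.05 and 0.12. The oxidases had positive medians on both lc1 arrays (0.27 and 0.14), and the type A regulators had medians of -0.62 and 0.12.

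Of the other pathway genes looked for by name (cytokinin hydroxylases, nucleoside and purine transporters, glucosyltransferases, cytokinin response factors, the CKX2 regulator DST and the KNOX genes that promote cytokinin synthesis), only CHARK and OSH1 had a named probe set. CHARK, a receptor-like kinase that carries the cytokinin-binding domain of the histidine kinases, read 48.5 and 28.5 in lc1 against 35.4 and 28.1 in the wild type (0.24 ± 0.40). OSH1, a meristem homeobox gene, was under the floor on all 4 arrays on both of its probe sets.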

How the data were processed

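Signals of 4 arrays, 2 of lc1 and 2 of the wild type, were deposited by the authors as linear intensities, 1 per probe set and array, from the Affymetrix Microarray Suite, version 5.0, per the series' design text. R 1.8.0 is named in the submitters' processing notes. The detection calls and probe-level data of the authors' tests were not used here. The deposited intensities were not at one level (medians of the non-control probe sets from 11.8 to 16.1). Of 57381 probe sets, 123 controls were left out. The 18 values of 0 were set to 0.05, log2 taken, and probe sets with a mean log2 signal at or above the 40th percentile (2.58) kept, 34355 in all. Each array was then shifted to the same median over these. The test was limma 3.58.1 in R 4.3.3 (lmFit, eBayes with an intensity trend, genotype only, 2 residual degrees of freedom, 2-sided, Benjamini-Hochberg over all tested probe sets, threshold 0.05), tested on simulated data. As floor of each array served the 95th percentile of 23 Tag and TrpnX controls on it. Bounds raise dim arrays to their floor. Names came from the platform annotation joined to the gene table of ASM3414082v1 (22436 probe sets with 1 gene, 95 with several, 34727 with none). The brightest probe set on average stands for a gene. Probe sets of gene families, above all with identifiers ending in _s_at or _x_at, can cross-hybridise. Such identifiers belong to the probe sets that stand for LOGL1 (_x_at) and for AHP1, HK5 and RR4 (_s_at). Named with values on every array were members at least 1.5-fold apart without overlap and the 2 brightest probe sets of a step, and, chosen after their values were seen, other members. Members and lists were chosen with earlier results of these data known. No pair of arrays shared over 1.64% of identical signals. P-values measure only the spread between these arrays, and their number limits the precision.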

Additional observations from a re-analysis of the deposited data

How the results depend on the processing

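Group medians are relative to the median tested probe set, and single genes are given with that median held at its level in the analysis reported (0.07), from which it moved by 0.15 in the signals as deposited, -0.093 with quantile normalization and -0.13 with trimmed mean scaling. Without that correction trimmed mean scaling lowers every gene by 0.13, which puts LOG, AHP1 and HK5 below 0 on their brightest probe sets. The signals as deposited raise every gene by 0.15, which puts HK3, RR22 and the brighter probe set of CKX11 above 0. Quantile normalization without the correction puts LOG, AHP1, HK5 and RR21 below 0. The directions of all these genes rest on the scaling, and so do the counts of higher and lower genes that include them. The count of all probe sets called, 20 in the analysis reported, was 1 for signals as deposited, 4 with quantile normalization, 13 with trimmed mean scaling, 4 with no filter, 46 with a filter at the 60th percentile, 53 with log2(signal + 16), 0 without an intensity trend (2439 at an unadjusted p under 0.05), 0 for the unmoderated linear model (2137 unadjusted) and 11 to 1211 when 1 array was left out. The call of LOGL3 was gained with the filter at the 60th percentile (adjusted p = 0.0484), with log2(signal + 16) (adjusted p = 0.0437) and without either lc1 array, and its adjusted p reached 0.781 in the unmoderated model. The count of cytokinin probe sets called was 1 under these 2 settings and 0 to 2 when 1 array was left out, with RR1 the other gene. With the replicate number of the titles as a block, 658 probe sets were called, 1 of them a cytokinin gene, LOGL3 (adjusted p = 2.25e-05). The labels do not say that a number pairs the arrays, and deviations of same-numbered arrays correlated at -0.04. With 1 array left out, the median of all member genes ranged from -0.41 to -0.072, the LOG family from -0.15 to -0.0070 (0.073 over all arrays), the oxidases from -0.017 to 0.22, the type A regulators from -0.67 to -0.0086 and the type B regulators from -0.42 to -0.15. The oxidase median was -0.18 with the filter at the 60th percentile, which left out CKX3. Several differences changed sign, and not only those near 0. LOG was -0.022 with quantile normalization. With 1 array left out, LOG ranged from -0.15 to 0.21, CKX11 from -0.31 to 0.096, AHP1 from -0.067 to 0.17, HK3 from -0.32 to 0.024, HK5 from -0.26 to 0.34, RR42 from -0.0092 to 0.33, RR6 from -0.58 to 0.0031, RR9 from -1.26 to 0.40 and RR21 from -0.11 to 0.39. Signs also changed for RR2 (-0.59 to 0.065), RR4 (-0.55 to 0.20) and RR22 (-0.35 to 0.057). The same held for LOGL1 (-0.061 to 0.58), LOGL6 (-0.22 to 0.85) and the other probe set of AHP1 (-0.14 to 0.35). Of the type A genes, only RR1 kept its sign in each of these fits (-1.29 to -0.19). A fit without 1 array takes the spread of the genotype left with 1 array from the other genotype. Apart from the scaling, the cause of these changes was not tested.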
